A study of Homo sapiens with 12 samples.

Results

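The genes described here are 53 genes of mitosis and the G2/M transition, listed by name and grouped by what their products do. They range from the cyclin B-CDK1 engine to the condensin complexes. They were chosen from a gene list and not by any threshold on measured values, but with earlier results of these data known. All 53 were found among the 57905 gene identifiers of the count table, each under 1 identifier, and all 53 passed the filter on low counts that left 13832 genes to test. RNA was measured by QuantSeq, a method that reads the 3′ end of each polyadenylated transcript, in OCI-AML3, a human cell line from acute myeloid leukaemia that is in wide use. The 4 groups held 3 libraries each. In the drug arm, cells received vehicle or SA, an agent the labels give only by these letters, at 500 µM for 6 days. In the guide arm, cells carried sgSCR, a scrambled guide RNA, or sgALAS1, a guide against ALAS1, the first enzyme of heme synthesis, and both guides were switched on by doxycycline for 7 days. The series title places the work in the study of blocked heme synthesis in acute myeloid leukaemia.

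The sgSCR and vehicle groups differ by guide carriage, by doxycycline and by time, and these cannot be told apart. Whether the replicates came from separate cultures is not stated, so the p-values measure the spread between these libraries, which may be technical. Nor is it stated whether the guide-bearing cells came from a single clone. All libraries come from 1 cell line.

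A cell enters mitosis when cyclin B-CDK1, held back through G2, is switched on and the kinases PLK1 and the Auroras join it. Chromosomes are compacted by condensin, attach to spindle microtubules through kinetochores, and are held at metaphase by the spindle checkpoint until the anaphase-promoting complex marks securin and cyclin B for destruction. Most of these genes are transcribed together late in the cell cycle, under the DREAM and MuvB complexes with B-MYB and FOXM1. Their RNA therefore tends to follow the share of cells in G2 and mitosis, though a sum over the list is weighted to its highest genes. In bulk RNA, fewer cells in G2 or mitosis and less RNA per cell cannot be told apart.

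Promoters were described because these genes share a known promoter type. RefSeq promoter windows (GRCh38.p14) ran from 250 bases before to 50 bases after the transcript start, and 45 of the 53 genes matched by symbol. The NF-Y box CCAAT, searched on both strands, was in 33 of the 45 windows (73.3%) and in 35.7% of all 27305 windows in the table. The core of the cell cycle genes homology region, TTTGAA, also searched on both strands, was in 29 of 45 (64.4%) and in 15.4% of all windows. Both were in 22 of 45 windows (48.9%), against 6.08% of all, and a match of each overlapped in 2 of the 45. TTTGAA began within the 40 bases before the start in 18 of 45 windows and in 2.10% of all windows. CCAAT began between 120 and 41 bases before the start in 28 of 45 (62.2%) and in 17.7% of all windows. These narrower windows were chosen after the matches were seen. A match is a description of letters, not a shown binding site, and no match says only that these letters are not in this window.

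**Figure D1:**
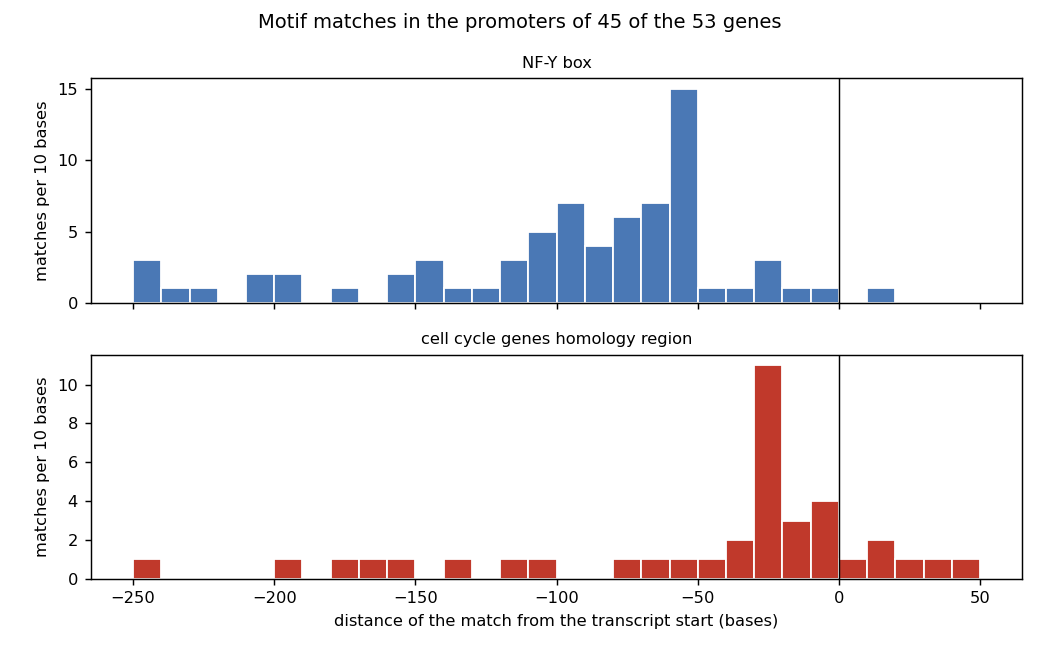
Histograms of where the motif matches begin in the 45 promoter windows, with the distance from the transcript start in bases on the x axis and the number of matches per 10 bases on the y axis, for the NF-Y box (top) and the cell cycle genes homology region (bottom). The NF-Y matches pile up between 120 and 41 bases before the start, and those of the homology region within 40 bases before it.

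Library totals ran from 4658513 to 7339843 assigned reads, with a median of 5573540. A gene of the list had between 42 and 11100 reads in a library, and the standard error of its log2 fold change lay between 0.10 and 0.24, with a median of 0.15. All 8 myeloid markers were tested. Their summed level was 1293 to 1315 CPM (counts scaled to a common library size) with vehicle and 2352 to 2481 with SA, and 1079 to 1172 with sgSCR against 1907 to 2103 with sgALAS1. LYZ, lysozyme, made up most of these rises, with means of 564 CPM with vehicle and 1455 with SA, and 341 with sgSCR and 1029.7 with sgALAS1. Of the 8 markers, 2 rose with SA and 4 with sgALAS1, and 0 fell. CSF3R and MPO had log2 fold changes of -0.37 and -1.03 with SA that did not pass (adjusted p = 0.155 and 0.210). MPO, a defining myeloid marker, was near 0 (group means of 1.71 to 3.78 CPM). The erythroid markers HBB and HBA1 were at 0 in all libraries. Lymphoid markers summed to 12.5 to 15.9 CPM with vehicle and 0.58 to 1.99 with SA. They summed to 4.66 to 5.78 with sgSCR and 0 to 0.91 with sgALAS1. CD3D made up most of the vehicle and sgSCR sums, and CD3E was at 0. The CD3D mean was 13.5 CPM with vehicle and 0.77 with SA (log2 fold change -4.06, edgeR adjusted p = 5.45e-07). It was 4.99 CPM with sgSCR and 0 with sgALAS1 (-7.85, adjusted p = 2.9e-07). Between sgSCR and vehicle it was also lower (-1.43, adjusted p = 0.0467). Stromal and epithelial markers summed to between 0.60 and 8.49 CPM. The part of these shifts in the mitotic values was not tested. ALAS1 itself stood at 38.6, 41.9 and 37.4 CPM with sgSCR and at 26.2, 26.3 and 27.3 with sgALAS1 (log2 fold change -0.56, edgeR adjusted p = 0.00777, and 0.0503 without the second sgSCR library). With SA it went the other way, from 37.5, 36.4 and 31.1 CPM with vehicle to 106, 102 and 111 (1.60, adjusted p = 1.36e-09). Its 3′ reads need not cover the site that the guide targets.

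With SA, a small group of kinetochore, condensin and spindle genes had less RNA than with vehicle, and most of the mitotic genes were not called. Of the 53 genes, 7 fell (NDC80, SPC25, CENPA, NCAPG, HMMR, STMN1 and SMC4) and 2 rose (UBE2C and UBE2S) at an adjusted p under 0.05 in edgeR's quasi-likelihood test with Benjamini-Hochberg adjustment over all genes. Of all 13832 genes, 11.1% were called by the same rule, 6.24% lower and 4.83% higher. The log2 fold change was below 0 for 38 of the 53, with a median of -0.13, against 7050 of 13832 genes below 0 and a median of -0.01 over all. The 53 genes summed to 8363 ± 793 CPM (SD, n = 3) with vehicle and 7917 ± 444 with SA, and the groups overlapped. TUBA1B and TOP2A, the genes with the highest levels, weigh heavily in this sum. Without them the sums were 5261, 5335 and 6012 CPM with vehicle and 5368, 5497 and 5141 with SA, again overlapping. UBE2S, a gene with a high level that rose with SA, stayed in these sums. A summary that weights genes equally is the median, over the 53, of the log2 deviation of a library from each gene's mean over the 12 libraries. It was 0.01, -0.04 and 0.21 in the vehicle libraries and -0.09, -0.05 and -0.17 in the SA libraries. Every SA library was below every vehicle library, by a narrow margin between the second library of each.

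The kinetochore, the protein structure that ties each centromere to spindle microtubules, held 3 of the 7 genes that fell. NDC80 encodes the microtubule-binding subunit of the NDC80 complex and SPC25 a subunit at its inner end, towards the chromosome. Their promoters are shown because these genes had the lowest fold changes of the list with SA. Each is given 5′ to 3′ on the gene's strand, 220 bases before the start and 20 from it, with CCAAT or ATTGG and TTTGAA or TTCAAA in capitals. NDC80 lies at chr18:2571337-2571576 (plus strand) and SPC25 at chr2:168890411-168890650 (minus strand).
NDC80: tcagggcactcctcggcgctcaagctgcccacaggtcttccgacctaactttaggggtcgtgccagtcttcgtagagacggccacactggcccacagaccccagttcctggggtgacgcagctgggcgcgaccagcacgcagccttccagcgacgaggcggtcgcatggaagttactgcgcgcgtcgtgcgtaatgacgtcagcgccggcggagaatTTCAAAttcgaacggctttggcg
SPC25: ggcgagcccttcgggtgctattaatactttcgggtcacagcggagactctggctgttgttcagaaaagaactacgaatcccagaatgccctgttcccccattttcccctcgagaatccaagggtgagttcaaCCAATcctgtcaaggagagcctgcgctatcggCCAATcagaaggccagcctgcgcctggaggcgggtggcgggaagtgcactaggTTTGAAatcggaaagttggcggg
In both windows a homology-region match begins 3 bases before the start (position -3). SPC25 also holds NF-Y boxes at positions -88 and -56, and the NDC80 stretch holds none.

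NDC80 stood at 23.3, 27.2 and 28.3 CPM with vehicle and at 8.16, 16.9 and 9.40 CPM with SA. All SA libraries were below all vehicle libraries, with the SA library of replicate 2 closest to them. The log2 fold change was -1.20 (SE 0.24, edgeR adjusted p = 0.00108), the lowest of the 53. SPC25 was at 24.6, 27.9 and 25.1 CPM with vehicle and at 10.1, 19.3 and 17.02 with SA. These groups did not overlap either, and the first SA library was the lowest (log2 fold change -0.74, SE 0.22, adjusted p = 0.0233). CENPA, the histone H3 variant that marks centromeres, was at 18.8, 20.6 and 24.2 CPM with vehicle and at 12.8, 15.7 and 13.3 with SA. Again every SA library was lower, and the log2 fold change was -0.60 (SE 0.20, adjusted p = 0.0441). The other subunits of the NDC80 complex, NUF2 and SPC24, did not pass the test. NUF2 was at 97.5, 88.2 and 81.4 CPM with vehicle and 88.6, 74.6 and 84.0 with SA, and the groups overlapped. SPC24 was at 16.4, 19.0 and 23.2 CPM with vehicle and 17.9, 16.1 and 14.1 with SA, again overlapping. All 7 kinetochore genes had a log2 fold change below 0, with a list median of -0.28, and the other 2, CENPE and CENPF, did not pass.

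Chromosome structure held 2 more genes that fell, NCAPG and SMC4, both subunits of condensin, the ring complex that compacts mitotic chromosomes. NCAPG stood at 76.1, 91.1 and 95.6 CPM with vehicle and at 71.9, 56.3 and 56.4 with SA. The groups did not overlap, with the first library of each close together (log2 fold change -0.51, SE 0.15, adjusted p = 0.0273). SMC4 was at 443, 552 and 575 CPM with vehicle and 410, 438 and 398 with SA. Here the lowest vehicle library was just above the highest SA library (log2 fold change -0.33, SE 0.11, adjusted p = 0.0439). SMC2, the partner ATPase of SMC4, had a log2 fold change of -0.28 that did not pass (adjusted p = 0.189). NCAPH, the kleisin subunit that closes the ring, was at 51.7, 46.7 and 51.8 CPM with vehicle and at 40.02, 41.8 and 36.3 with SA. Its groups did not overlap, but it did not pass the test. TOP2A, the topoisomerase that untangles sister DNA, was at 1314, 1179 and 1290 CPM with vehicle and 1326, 1173 and 1265 with SA. MKI67, the Ki-67 protein that coats mitotic chromosomes, was at 262, 247 and 298 CPM with vehicle and 268, 308 and 255 with SA. Both overlapped between groups, with 95% intervals of the log2 fold change of -0.21 to 0.20 for TOP2A and -0.18 to 0.27 for MKI67.

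Among spindle and tubulin genes, HMMR and STMN1 fell. HMMR, a spindle-associated protein also known as RHAMM, was at 54.8, 63.0 and 71.5 CPM with vehicle and at 42.5, 44.0 and 46.2 with SA. The SA libraries lay close together and all below the vehicle libraries (log2 fold change -0.51, SE 0.15, adjusted p = 0.0287). STMN1, or stathmin, which binds tubulin dimers and favours microtubule disassembly, was at 333, 432 and 496 CPM with vehicle and 289, 353 and 261 with SA. Its groups overlapped, since the second SA library was above the first vehicle library (log2 fold change -0.48, SE 0.15, adjusted p = 0.0335). TPX2, NUSAP1, DLGAP5 and TUBA1B did not pass, and the median of the 6 genes was -0.18.

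**Figure D2:**
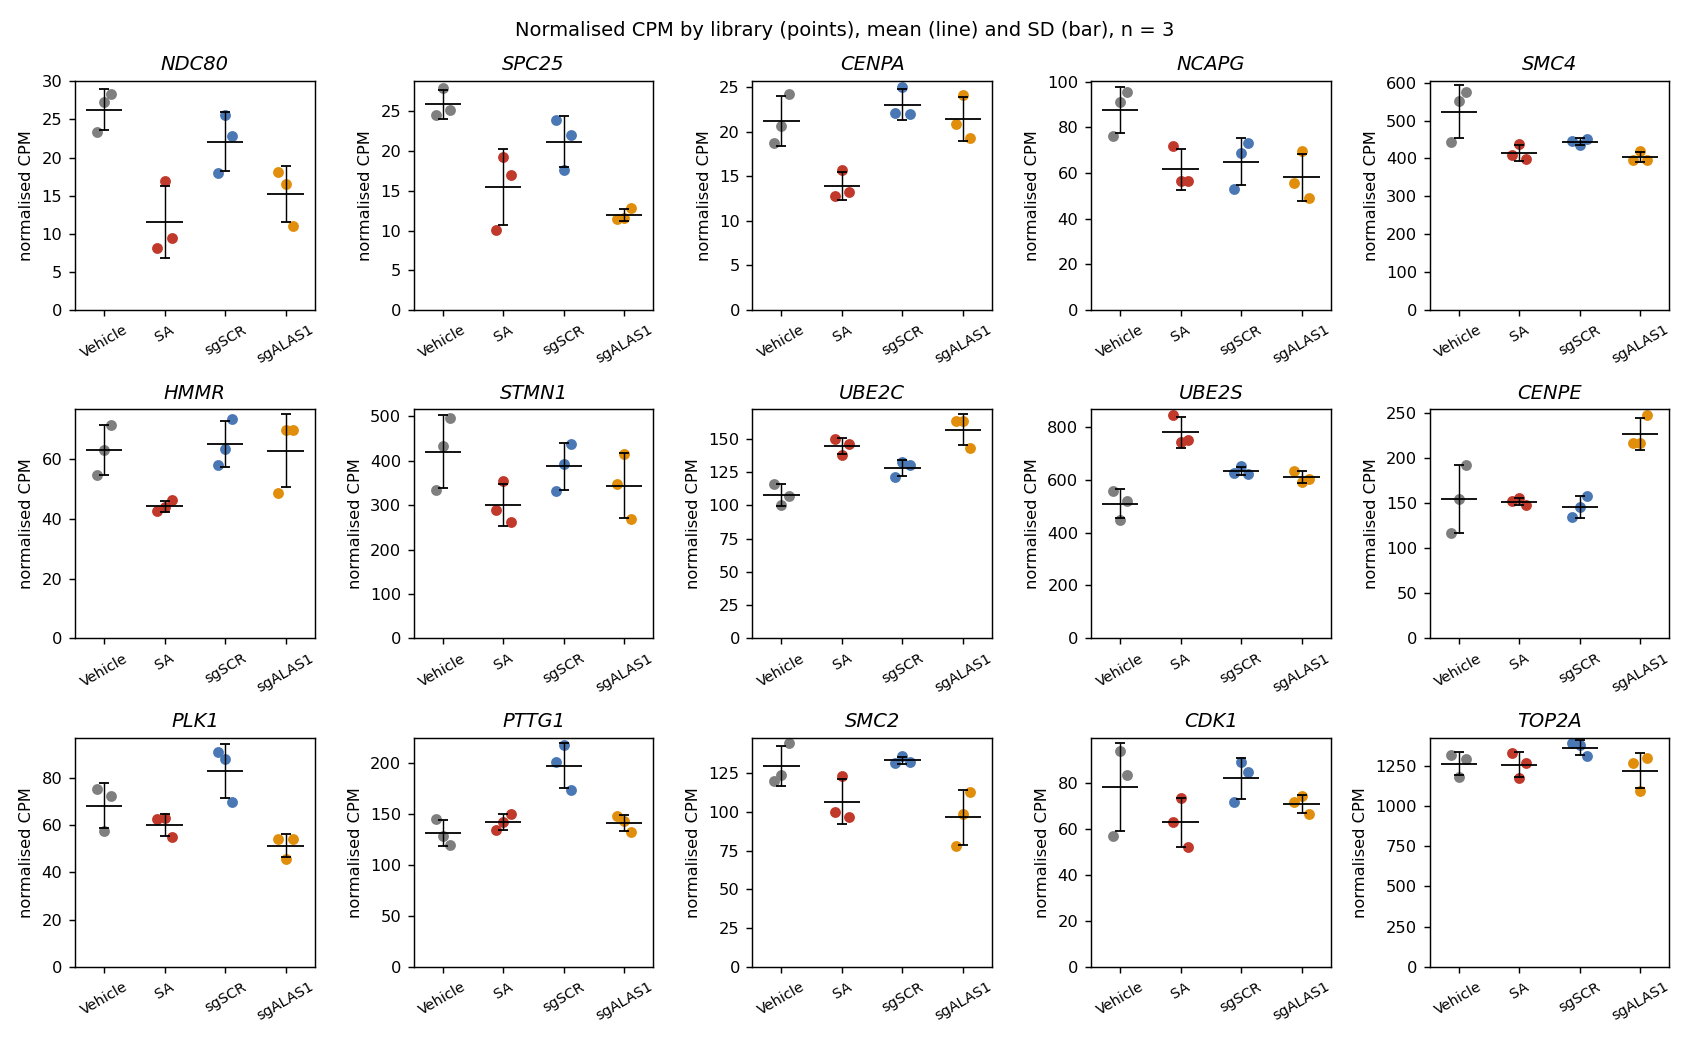
Normalised CPM (y axis, from 0) of 15 genes in the 4 groups (x axis), with a point per library, the mean as a line and the SD as a bar (n = 3). NDC80, SPC25 and CENPA are lower with SA than with vehicle in every library, UBE2S is higher with SA than in any other group, and CENPE is higher with sgALAS1 than in any other group.

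The genes that rose with SA were ubiquitin-conjugating enzymes of the anaphase-promoting complex, the ligase that ends mitosis. UBE2C, which starts the ubiquitin chains, was at 116, 100.0 and 107 CPM with vehicle and at 150.0, 138 and 146 with SA. No library of either group crossed into the other (log2 fold change 0.42, SE 0.11, adjusted p = 0.0147). UBE2S, which lengthens the chains, was at 557, 448 and 520 CPM with vehicle and at 845, 740 and 749 with SA. The SA libraries were also above all sgSCR and sgALAS1 libraries (log2 fold change 0.61, SE 0.11, adjusted p = 1.66e-04). The UBE2S promoter is shown because the gene moved against most of the list. It lies at chr19:55407769-55408008 (minus strand), given as above.
UBE2S: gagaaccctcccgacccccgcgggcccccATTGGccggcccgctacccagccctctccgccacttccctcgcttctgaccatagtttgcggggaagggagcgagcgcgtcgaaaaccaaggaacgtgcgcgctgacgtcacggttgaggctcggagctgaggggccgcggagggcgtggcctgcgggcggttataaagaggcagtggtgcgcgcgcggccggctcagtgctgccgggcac
It holds an NF-Y box in the reverse sense at position -191 and no homology-region match. UBE2C had no entry in the promoter table. CDC20, the activator of the same ligase, was at 91.0, 68.5 and 85.6 CPM with vehicle and 106, 82.0 and 109 with SA, with overlapping groups and an adjusted p of 0.202. PTTG1, or securin, a target of the ligase that guards sister cohesion, had a log2 fold change of 0.12 (adjusted p = 0.602). The list of 4 had a median of 0.35, the highest of the 10 roles with SA.

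None of the 9 genes of the engine of mitotic entry was called. The nearest was CCNB2, cyclin B2, at 74.2, 63.1 and 89.5 CPM with vehicle and 59.3, 53.1 and 60.5 with SA. Every SA library was lower (log2 fold change -0.39, SE 0.13, adjusted p = 0.0582). It passed without the second vehicle library (0.0245) and on library totals without TMM scaling (0.0296). CDK1 was at 57.0, 94.1 and 83.5 CPM with vehicle and at 62.9, 73.6 and 52.4 with SA. The first vehicle library was among the low values, so the groups overlapped (log2 fold change -0.31, 95% interval -0.63 to 0.01, adjusted p = 0.223). Without that library the log2 fold change was -0.50 and the adjusted p was 0.0279. CCNB1, cyclin B1, was at 67.3, 55.3 and 70.8 CPM with vehicle and 68.4, 56.5 and 65.7 with SA, which interleave. Its 95% interval ran from -0.30 to 0.26. FOXM1, the transcription factor of this programme, was at 20.8, 26.7 and 32.9 CPM with vehicle and 23.3, 26.7 and 31.0 with SA. Its interval, -0.43 to 0.46, was wider than that of CCNB1. The 9 genes of the engine had a median of -0.10 and ranged from -0.39 to 0.33.

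The remaining roles held no gene that passed with SA. PLK1, which acts from mitotic entry to cytokinesis, was at 75.2, 57.5 and 72.2 CPM with vehicle and 62.6, 62.9 and 55.0 with SA, overlapping (log2 fold change -0.19, adjusted p = 0.46). AURKB, the kinase of the chromosomal passenger complex that corrects faulty attachments, was at 117, 95.1 and 105 CPM with vehicle and 109, 102 and 109 with SA. Its interval ran from -0.25 to 0.26. The 5 spindle checkpoint genes (BUB1, BUB1B, BUB3, MAD2L1 and TTK) were all below 0, with a median of -0.25. Of these, BUB3 was at 149, 168 and 173 CPM with vehicle and 138, 139 and 119 with SA, groups that did not overlap, though it did not pass. The 6 kinesins, motors of the spindle, ranged from -0.17 to 0.10. The 4 cytokinesis genes had a median of -0.08, and the lowest, ECT2, was at 21.9, 21.5 and 29.7 CPM with vehicle and 17.5, 19.3 and 14.4 with SA without passing. In all, 11 of the 53 genes had every SA library below every vehicle library and 2 had every one above. Of all genes, 14.8% and 12.6% did so.

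**Figure D3:**
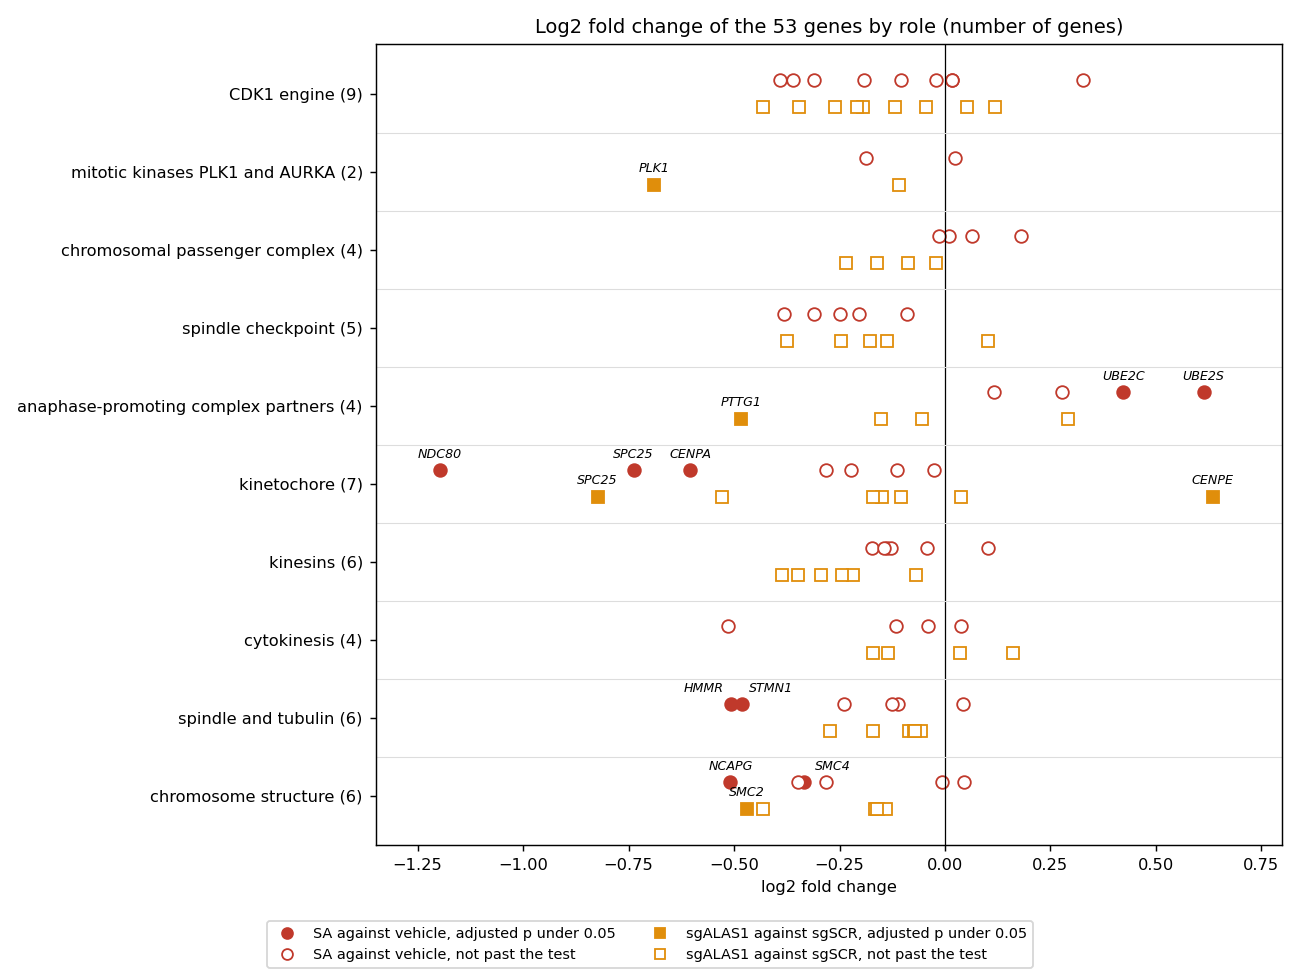
Log2 fold change (x axis) of each of the 53 genes by role (y axis), as circles for SA against vehicle and squares for sgALAS1 against sgSCR, filled where the adjusted p was under 0.05. The kinetochore genes spread from -1.20 to 0.64 over both arms, while the kinesins lie between -0.39 and 0.10.

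Most of the calls with SA did not hold when a single library was left out. NDC80 and UBE2S passed whichever of the 6 SA and vehicle libraries was left out, with adjusted p up to 0.0166 and 0.00459. Without the third vehicle library, which held the highest vehicle value for 36 of the 53 genes, 1 gene fell in place of 7. The 6 that no longer passed were SPC25 (adjusted p = 0.0536), CENPA (0.193), NCAPG (0.117), HMMR (0.153), STMN1 (0.214) and SMC4 (0.211). Without the second vehicle library or the SA library of replicate 1 or 3, 2 genes fell in each case and 1 rose. UBE2C then had adjusted p of 0.0833, 0.0745 and 0.0509. Without the second SA library, 4 fell, and without the first vehicle library, 10. Over the 6 omissions the adjusted p reached at most 0.170 for SPC25. No gene of the list passed a test against a 1.5-fold change in any comparison (NDC80 with SA came to an adjusted p of 0.0841).

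**Figure D4:**
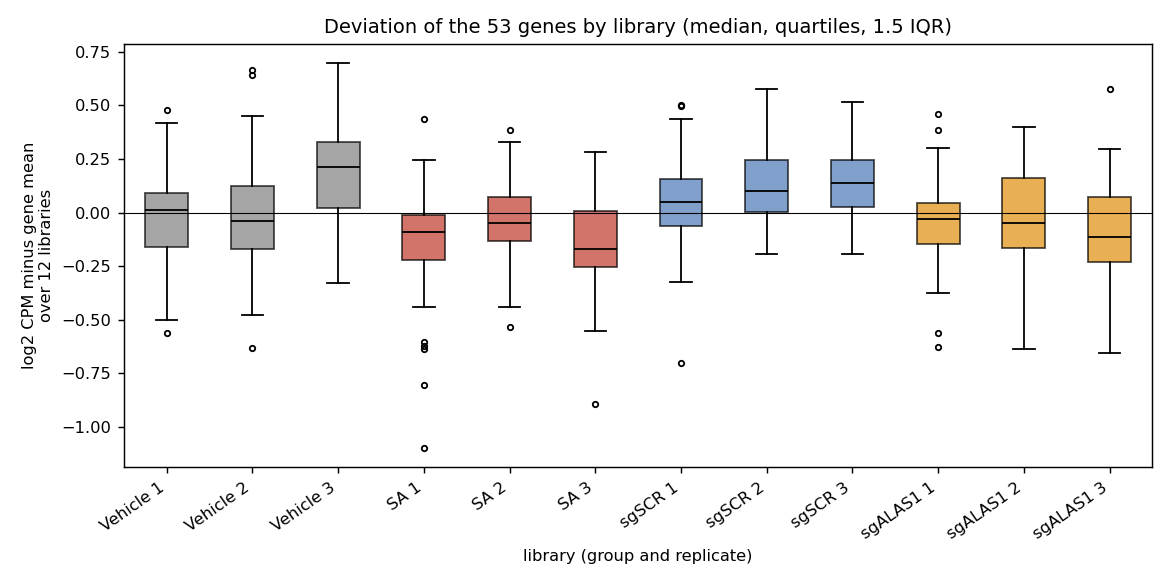
Box plots of how far each of the 53 genes lay from its own mean over the 12 libraries (y axis, log2 CPM), by library (x axis), with the median, quartiles, whiskers to 1.5 times the interquartile range and points beyond. The third vehicle library has the highest median, at 0.21.

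With sgALAS1, 5 genes of the list passed, SPC25 among them as with SA. Of the 53, 4 fell (PLK1, PTTG1, SPC25 and SMC2) and 1 rose (CENPE), while 11.7% of all genes were called, 6.85% lower and 4.88% higher. The share of the 53 that fell was thus near that of all genes. The log2 fold change was below 0 for 45 of the 53, against 6961 of 13832 over all, and the median was -0.16, against -0.0034 over all. The 53 genes summed to 8543 ± 462 CPM (SD, n = 3) with sgSCR and 7913 ± 385 with sgALAS1, with overlapping groups. Without TUBA1B and TOP2A, the sums were 5502, 5899 and 5848 CPM with sgSCR and 5329, 5470 and 5193 with sgALAS1. These did not overlap, so the overlap of the full sums rested on those genes. The median deviation of the 53 genes was 0.05, 0.10 and 0.14 in the sgSCR libraries and -0.03, -0.05 and -0.11 in the sgALAS1 libraries, also without overlap. The sgALAS1 medians did overlap those of the vehicle libraries (0.01, -0.04 and 0.21). Every sgALAS1 library was below every sgSCR library for 15 of the 53 and above for 2, against 15.5% and 13.6% of all genes.

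PLK1 and CENPE carried the results in this arm that held without any single library of its own, and their promoters are shown for that reason. PLK1 lies at chr16:23678669-23678908 (plus strand) and CENPE at chr4:103198324-103198563 (minus strand), written as above.
PLK1: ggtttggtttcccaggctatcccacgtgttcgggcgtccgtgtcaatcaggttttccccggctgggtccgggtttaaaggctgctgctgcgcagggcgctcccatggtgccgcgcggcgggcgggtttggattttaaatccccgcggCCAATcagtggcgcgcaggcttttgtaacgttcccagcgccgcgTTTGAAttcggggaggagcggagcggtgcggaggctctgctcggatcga
CENPE: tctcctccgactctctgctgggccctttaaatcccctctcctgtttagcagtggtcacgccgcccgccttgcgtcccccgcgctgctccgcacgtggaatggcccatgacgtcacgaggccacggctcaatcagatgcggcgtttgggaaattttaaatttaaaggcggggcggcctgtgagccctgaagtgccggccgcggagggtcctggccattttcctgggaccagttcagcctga
PLK1 holds an NF-Y box at position -73 and a homology-region match at position -29, while the CENPE stretch holds neither set of letters. Over the 4 genes that fell with sgALAS1, 3 of the windows held TTTGAA and 3 held CCAAT. Over the 7 that fell with SA, the counts were 6 and 4. Over the 33 windows of genes called in neither arm, 21 (63.6%) held TTTGAA and 26 (78.8%) held CCAAT.

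PLK1 stood at 91.2, 87.9 and 69.8 CPM with sgSCR and at 54.3, 45.6 and 54.3 with sgALAS1. The groups did not overlap, with the third sgSCR library nearest to the sgALAS1 libraries. The log2 fold change was -0.69 (SE 0.14, adjusted p = 0.00118). CENPE, the kinesin-like motor that moves chromosomes to the spindle equator, was at 134, 145 and 158 CPM with sgSCR and at 217, 217 and 247 with sgALAS1. The sgALAS1 libraries were above those of every other group (log2 fold change 0.64, SE 0.13, adjusted p = 0.00147). With SA, CENPE had a log2 fold change of -0.03 (adjusted p = 0.941), and its vehicle libraries spread from 117 to 193 CPM, around the SA values of 152, 156 and 148.

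SPC25 fell here too, from 23.9, 17.7 and 22.0 CPM with sgSCR to 11.4, 11.6 and 12.9 with sgALAS1. It was the 1 gene called in both arms. That is 11.1% of the 9 called with SA and 1 of the 5 called with sgALAS1, shares not counted over all genes. The SPC25 log2 fold change of -0.82 (SE 0.22, adjusted p = 0.0129) no longer passed without the first sgSCR library (adjusted p = 0.0671) or the first sgALAS1 library (0.0564). NDC80 was at 17.9, 25.6 and 22.8 CPM with sgSCR and 18.1, 16.5 and 11.1 with sgALAS1, and the groups overlapped by 1 library (log2 fold change -0.53, SE 0.24, adjusted p = 0.158). CENPA, at 22.1, 25.1 and 22.0 CPM against 20.8, 24.2 and 19.3, overlapped more (log2 fold change -0.10, adjusted p = 0.805).

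PTTG1 fell from 201, 217 and 173 CPM with sgSCR to 148, 143 and 133 with sgALAS1. It was the sgSCR group that stood apart, since the vehicle, SA and sgALAS1 libraries all lay between 120 and 150 CPM. The log2 fold change was -0.48 (SE 0.12, adjusted p = 0.00584) and did not pass without the second sgSCR library (0.0610). SMC2 fell from 132, 136 and 132 CPM with sgSCR to 77.6, 98.9 and 113 with sgALAS1. The sgSCR libraries were close together and the sgALAS1 libraries spread (log2 fold change -0.47, SE 0.13, adjusted p = 0.0198). It did not pass without the second sgSCR library (0.0760) or the first sgALAS1 library (0.173). SMC4, at 446, 434 and 452 CPM against 395, 418 and 397, did not overlap between groups but did not pass (log2 fold change -0.14, adjusted p = 0.478). NCAPG, at 53.2, 68.8 and 72.9 CPM against 55.7, 69.4 and 49.2, overlapped (log2 fold change -0.16, adjusted p = 0.576).

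The enzymes that rose with SA were not called with sgALAS1. UBE2C was at 121, 133 and 130.1 CPM with sgSCR and at 163, 164 and 143 with sgALAS1. Every sgALAS1 library was higher, but the adjusted p was 0.097 (log2 fold change 0.29, SE 0.11). UBE2S was at 626, 651 and 621 CPM with sgSCR and 634, 592 and 602 with sgALAS1, overlapping (log2 fold change -0.05, adjusted p = 0.819). CDC20 was at 103, 92.4 and 91.3 CPM against 85.0, 79.6 and 93.3, with an interval of -0.43 to 0.13.

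Among the other genes of the engine and chromosome, CDK1 was at 71.9, 89.0 and 85.0 CPM with sgSCR and 71.9, 74.3 and 66.5 with sgALAS1 (log2 fold change -0.21, 95% interval -0.53 to 0.11). CCNB1 was at 57.4, 68.6 and 70.8 CPM against 60.0, 56.2 and 55.9, with an interval of -0.48 to 0.09. FOXM1 was at 30.1, 27.6 and 38.9 CPM against 21.6, 35.8 and 18.4, an interval of -0.79 to 0.10. All 3 overlapped between groups. AURKB was at 109, 130.2 and 132 CPM against 109, 114 and 91.8 (interval -0.49 to 0.02). TOP2A was at 1391, 1381 and 1306 CPM against 1264, 1095 and 1295 (interval -0.36 to 0.05), and every sgALAS1 library was the lower. MKI67 was at 249, 246 and 257 CPM against 233, 216 and 221 (interval -0.39 to 0.06), again without overlap. None of these 6 passed. CCNA2, cyclin A2, was at 77.7, 91.4 and 80.5 CPM with sgSCR and 55.1, 68.7 and 61.6 with sgALAS1. Its groups did not overlap, but it did not pass (log2 fold change -0.43, SE 0.15, edgeR adjusted p = 0.0597). With SA, CCNA2 had a log2 fold change of -0.36 (adjusted p = 0.124), with overlapping groups. HMMR, which fell with SA, had a log2 fold change of -0.06 (adjusted p = 0.869) and STMN1 one of -0.17 (adjusted p = 0.533). All 6 kinesins were below 0 (-0.39 to -0.07), as were all 6 genes of chromosome structure and all 6 of the spindle, with medians of -0.27, -0.16 and -0.08. None of the kinesins or spindle genes passed.

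The difference of the arms, SA minus vehicle less sgALAS1 minus sgSCR, was tested in the same model. UBE2S alone of the 53 passed, with a difference of 0.67 on the log2 scale (SE 0.15, adjusted p = 0.0136), where 1.19% of all genes were called, 0.759% higher and 0.427% lower. It did not pass without the second vehicle library (adjusted p = 0.0638) or the first SA library (0.0843). PTTG1 had a difference of 0.60 (adjusted p = 0.0777), which passed without the first vehicle library (0.0218) or the third sgSCR library (0.0465). CENPE had a difference of -0.66 (adjusted p = 0.0921), which passed without the first vehicle library (0.00492). NDC80 had a difference of -0.67 (SE 0.34, adjusted p = 0.445) and PLK1 one of 0.50 (adjusted p = 0.287), so neither was shown to differ between SA and sgALAS1. For SPC25 the difference was 0.09, with a 95% interval of -0.55 to 0.72, which leaves room for a sizeable difference in either sense. Of the 53 genes, 40 were called in neither arm, a share not counted over all genes.

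**Figure D5:**
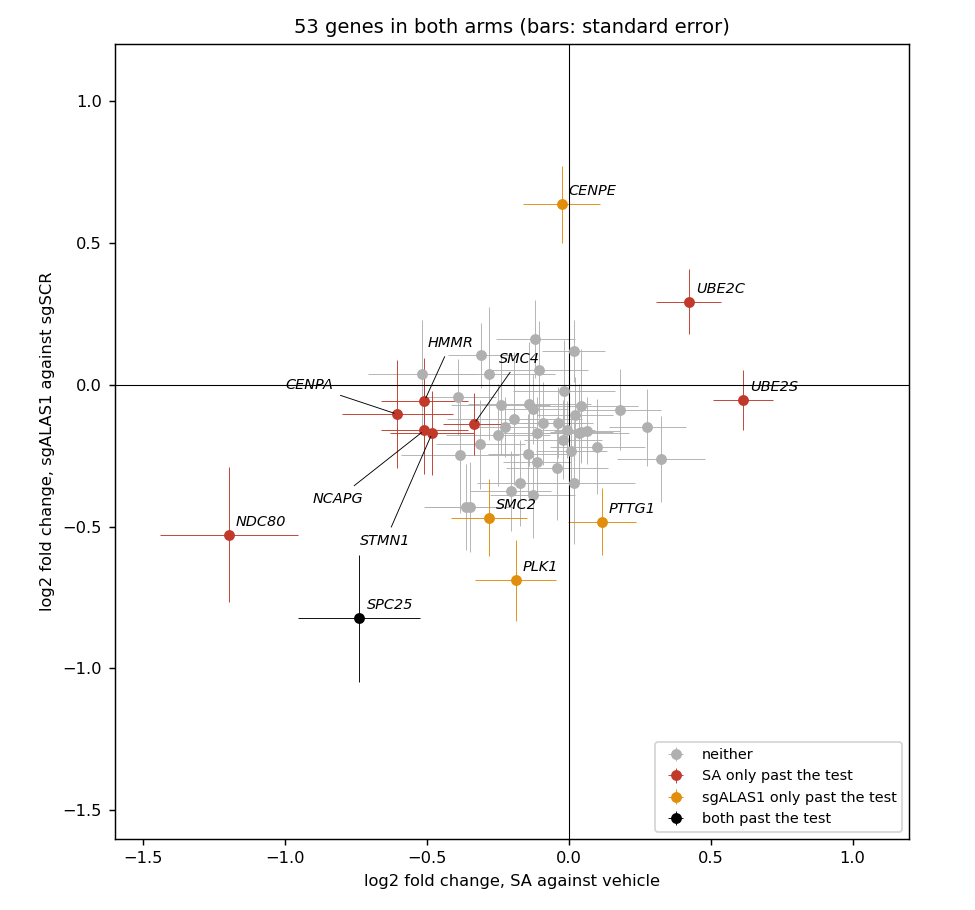
Log2 fold change of the 53 genes with SA against vehicle (x axis) and with sgALAS1 against sgSCR (y axis), with bars for the standard error and colour for the arm in which the adjusted p was under 0.05. SPC25 lies below 0 in both, while UBE2S and CENPE lie near 0 in 1 arm each.

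The control groups did not start from the same level for every gene. Between sgSCR and vehicle, 2 of the 53 rose, PTTG1 and CKS2, and 0 fell, where 1.43% of all genes were called, 0.470% higher and 0.962% lower. At an unadjusted p under 0.05 the count over both directions was 7 of the 53, against 1748 of all 13832 genes. DESeq2 also called 0 of the 53 lower. PTTG1 came to 0.59 on the log2 scale (SE 0.12, adjusted p = 0.00514), which did not pass without the second sgSCR library (0.0597). CKS2, a small CDK-binding protein, was at 37.4, 37.2 and 45.5 CPM with vehicle and 55.0, 72.2 and 62.7 with sgSCR. The groups did not overlap, and the log2 fold change was 0.66 (SE 0.15, adjusted p = 0.0163). It did not pass without vehicle library 1 (0.0551) or 2 (0.113), or without sgSCR library 2 (0.172) or 3 (0.0546). With SA, CKS2 was at 48.4, 57.3 and 44.9 CPM, and with sgALAS1 at 51.4, 60.9 and 46.1, and neither passed (log2 fold changes 0.33 and -0.26). UBE2S was above vehicle in all 3 sgSCR libraries (log2 fold change 0.32, adjusted p = 0.152), and NCAPG was below it in all 3 (-0.43, adjusted p = 0.183). In all, 6 of the 53 had every sgSCR library above every vehicle library and 3 had every one below, against 8.42% and 8.73% of all genes. Against vehicle, sgSCR had a log2 fold change above 0 for 37 of the 53, where 7039 of all 13832 genes did. The median was 0.07, against 0.01 over all genes. The part of this sgSCR level in the lower values with sgALAS1 was not tested.

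CDKN1A, the CDK inhibitor p21, is given for reference as a gene outside the list. It rose from 159, 119.99 and 143 CPM with vehicle to 254, 295 and 271 with SA (log2 fold change 0.96, adjusted p = 9.14e-06). It also rose from 162, 124 and 107 CPM with sgSCR to 236, 212 and 245 with sgALAS1 (0.82, adjusted p = 6.7e-05).

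A further 112 mitotic genes outside the list were counted to show the rest of the pathway, and all 112 were tested. With SA, 13 fell (11.6%, against 6.24% of all genes) and 1 rose (0.893%, against 4.83%), with a median of -0.12 and 72 below 0. With sgALAS1, 9 fell (8.04%, near the 6.85% of all genes) and 0 rose (against 4.88%), with a median of -0.13 and 73 below 0. At an unadjusted p under 0.05, 24 of the 112 differed with sgALAS1, where 3435 of all 13832 genes did. With SA the counts were 33 of the 112 and 3380 of all genes. CENPH, a subunit of the inner kinetochore, had the smallest p of the 112 in both arms. Its mean was 48.1 CPM with vehicle and 23.8 with SA (log2 fold change -1.02, SE 0.16, adjusted p = 3.4e-05), and 54.3 with sgSCR and 30.6 with sgALAS1 (-0.83, adjusted p = 3.08e-04). ARHGAP11A, a RhoA regulator, fell with SA (-0.58, adjusted p = 0.00284) and with sgALAS1 (-0.63, adjusted p = 0.00100). TUBA1A, an alpha-tubulin, fell with SA (-1.03, adjusted p = 0.00483) and had a lower level in sgSCR than in vehicle as well (-0.94, adjusted p = 0.0409). That difference between the controls did not pass without vehicle library 2 (0.189) or 3 (0.157), or without any of the sgSCR libraries (0.0660 to 0.167). CKAP2, a microtubule-binding protein, fell with sgALAS1 (-0.86, adjusted p = 0.00155), as did PBK, a mitotic kinase (-0.83, adjusted p = 0.00488), though PBK did not pass without the first sgSCR library (0.0598). The gene that rose with SA was TUBB4B, a beta-tubulin (0.47, adjusted p = 0.0111), named after its value was seen, and it did not pass without the second vehicle library (0.114) or the first SA library (0.0519). Of the 26 kinetochore and centromere genes among the 112, 6 fell with SA (23.1%, against 6.24% of all genes) and 2 with sgALAS1 (7.69%, near the 6.85% of all genes).

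Some of these genes share the end of their transcript with a neighbour in the GENCODE 29 annotation, within 500 bases of the 3′ end. No source used here gives the strand setting of the authors' counting, so reads of such pairs cannot be told apart. The fold changes of the neighbours below may therefore not be separate observations. TUBA1B had 98149 reads over the 12 libraries and its antisense gene TUBA1B-AS1 had 97981. The absolute differences by library summed to 0.171% of the TUBA1B reads, and TUBA1B-AS1 was not higher in any of the 12. PLK1 had 4545 reads and ERN2, on the opposite strand, 3986, and ERN2 also had a lower level with sgALAS1 (log2 fold change -0.71, adjusted p = 0.00145). UBE2S had 43342 reads and the opposite gene RPL28 had 51442, with more reads than UBE2S in all but 1 of the 12 libraries. RPL28 had a log2 fold change of 0.26 with SA that did not pass (adjusted p = 0.143). The part of RPL28 reads in the UBE2S values was not tested. NCAPG had 4732 reads and LCORL 4778, and LCORL fell with SA alongside it (-0.50, adjusted p = 0.0267). SMC4 had 30812 reads and TRIM59 9077, and TRIM59 fell in both arms (-0.50 and -0.40, adjusted p = 0.00571 and 0.0257). NOSTRIN, opposite SPC25, had 127 reads against 1298. Named pseudogenes of UBE2C had 299 reads, 3.24% of its own 9229. NDC80, CENPE and PTTG1 had no such overlap.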

How the data were processed

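RNA was measured by QuantSeq 3′ sequencing in 12 libraries, 3 per group, with groups taken from the labels. The authors deposited raw read counts per gene, per the labels. Per the submitters' processing notes, bcl2fastq 2.17.1.14, cutadapt 1.14, HISAT2 2.0.4, featureCounts in Subread 2.0.0, edgeR 3.34.0, limma 3.48.3 and hg19 were used, with no strand setting or annotation release given in the sources used here. Names came from a gene table (51996 identifiers) and GENCODE 29 (342), and 5567 stayed unnamed.

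Counts were fitted here in R 4.3.3 with edgeR 4.0.16 over all 12 libraries, with filterByExpr, TMM scaling, the two-sided quasi-likelihood test and Benjamini-Hochberg adjustment over 13832 genes at 0.05. Levels are normalised CPM. QuantSeq counts 3′ ends, so levels do not scale with transcript length. The biological coefficient of variation was 16.4%, and no 2 libraries held identical values. Alternatives used limma 3.58.1 and DESeq2 1.42.0, other scalings, filters, a replicate block, a 1.5-fold threshold and omission of each library.

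The 53 genes and the further 112 were chosen with earlier results of these data known. Per-library values are given for genes that passed in an arm or the difference, and for CCNB1, CDK1, CDC20, PLK1, AURKB, FOXM1, MKI67 and TOP2A whatever they showed. Up to 4 of the 112 are named per arm by smallest p, and a gene that this rule would name is not reported here. Some other genes are named because their groups did not overlap, or as partners in a complex, after their values were seen.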

Additional observations from a re-analysis of the deposited data

Results flagged for a closer look

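UBE2S, the chain-lengthening enzyme of the anaphase-promoting complex, differed between the arms. Its log2 fold change with SA exceeded that with sgALAS1 by 0.67 (SE 0.15, edgeR's quasi-likelihood test, adjusted p = 0.0136), higher than vehicle in 3 of 3 SA libraries. The vehicle and sgSCR levels it started from were 508 ± 55.5 and 633 ± 15.9 CPM (SD, n = 3). The part of that starting level in the difference was not tested. Reads of UBE2S and of RPL28, the opposite gene at its 3′ end, cannot be told apart here (43342 and 51442 reads).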

How the results depend on the processing

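Among the 53 genes, the number called with SA lay between 7 and 11 (9 as reported) under other scalings, DESeq2, limma voom, other filters, the groups compared alone and the replicate block. With sgALAS1 it was 5 or 6 (5 as reported). When each library was left out in turn, the SA count ranged from 3 to 12 (1 to 2 higher, 1 to 10 lower) and the sgALAS1 count from 3 to 5 (1 higher, 2 to 4 lower). The count for the difference of the arms then ranged from 0 to 3 (0 to 2 higher, 0 to 1 lower), and that for sgSCR against vehicle from 0 to 2 (0 to 2 higher, 0 lower). For the difference, 1 gene as reported, DESeq2 called 2 (2 higher), and no filter called 2 (1 higher, 1 lower). A test against a 1.5-fold change called 0 of the 53 in each comparison.

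Deviations of same-numbered libraries correlated between -0.07 and 0.06, and of others between -0.15 and 0.11. With 3 libraries per group, values near 0 cannot show that replicate numbers did not pair the libraries. The replicate block gave 10 genes of the 53 with SA (CCNB2 added, adjusted p = 0.0486), 6 with sgALAS1, 3 for the difference (2 higher, 1 lower, with PTTG1 and CENPE added at adjusted p = 0.0452 and 0.0408) and 2 for sgSCR against vehicle. Over all genes it gave 1704, 1796, 227 and 266, against 1531, 1622, 164 and 198 without the block.

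Over all genes, the 1.5-fold test called 249 with SA (76 higher, 173 lower), 412 with sgALAS1 (91 and 321), 68 for the difference (63 and 5) and 13 for sgSCR against vehicle (4 and 9). Without a filter, the difference gave 277 (170 and 107). For sgSCR against vehicle, DESeq2 called 300 (106 higher), and totals without TMM called 202 lower. Leaving out each library in turn gave 954 to 1595 with SA (393 to 762 higher, 544 to 833 lower) and 1134 to 1415 with sgALAS1 (427 to 545, 675 to 870). It gave 109 to 340 for the difference (83 to 231, 25 to 109) and 84 to 276 for sgSCR against vehicle (28 to 117, 56 to 159).

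Signs reversed for genes near 0 with SA. Without TMM, AURKB came to -0.050, FOXM1 to -0.050 and MKI67 to -0.016. AURKB came to -0.0058 without a filter and CENPE to 0.011 under limma voom. TOP2A came to 0.0030 under RLE factors and DESeq2 and to 0.0029 in the compared groups alone. With libraries left out, ranges crossed 0 for AURKB (-0.064 to 0.090), CCNB1 (-0.12 to 0.053), CENPE (-0.19 to 0.17), FOXM1 (-0.14 to 0.19), MKI67 (-0.042 to 0.13) and TOP2A (-0.055 to 0.036). They also did for HMMR with sgALAS1 (-0.15 to 0.10) and the SPC25 difference (-0.10 to 0.31). CENPA with SA did not pass under limma voom (adjusted p = 0.0618), without a filter (0.0917) or in the compared groups alone (0.0807), nor SMC4 under RLE factors (0.0514), without a filter (0.0553) or in those groups (0.0947). The cause of these changes was not tested. The standard errors, up to 0.24 over the 53 genes, and the adjustment over 13832 genes limit what could be called.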
